A study of Mus musculus with 8 samples.

Results

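Spi1, Cebpa, Cebpb, Cebpe, Gfi1, Irf8 and Klf4 encode transcription factors that act where the granulocyte and the monocyte lineages part in the bone marrow. They were followed here across the progenitor states of sorted c-Kit+ Lin- (KL) cells and across 8 pools of mice kept in different housing. The 7 genes were taken by name from the 27998 genes of the deposited count table, with Gfi1 and Cebpe read as the granulocyte pair and Irf8 and Klf4 as the monocyte pair. All 7 had UMIs in each of the 8 pools.

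KL cells were sorted from the bone marrow of female B6 mice aged 3 to 4 months, as cells that carry c-Kit (CD117) and lack CD3, CD4, CD8, CD45R, CD11b, TER119 and GR1. Single-cell libraries were made with droplet 3' chemistry from 10x Genomics, in which each captured transcript is counted once by its unique molecular identifier (UMI). The SPF group was 10 mice held in a specific pathogen-free facility and sorted as 4 pools of 2 or 3 mice (pools 1, 2, 7 and 8). The CVT group was 10 such mice that were moved into a conventional facility and shared cages for 1 month with mice born there, likewise sorted as 4 pools of 2 or 3 mice (pools 3, 4, 5 and 6). Pools 1 to 4 held the first 10 numbered mice and pools 5 to 8 the other 10, so each set of 4 pools had 2 pools of each group.

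Pools 1 to 8 held 1888, 3845, 4845, 4176, 4341, 4198, 2064 and 4534 cells, 29891 in all. Their UMI totals were 19041749, 43194400, 57567699, 59812346, 41901551, 44600182, 19814800 and 49911524, and single cells had 2759 to 49732 UMIs. Of the barcodes, 522 occurred in 2 or more pools, in 1048 cells (3.51% of all cells). The pool was the replicate throughout. A level is the number of UMIs of a gene per 1000000 UMIs (CPM) in the summed cells of a pool, values after ± are the SD over pools, and p-values measure the spread among pools of 2 or 3 mice, not among single mice.

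PU.1, the product of Spi1, and C/EBPα, the product of Cebpa, are the factors that open the myeloid program in multipotent progenitors and in granulocyte-monocyte progenitors (GMP). From there GFI1, a repressor, and C/EBPε, which is needed for the secondary granules, act on the granulocyte side, while IRF8 and KLF4 act in monocytes and dendritic cells, and mice without Irf8 are known for an excess of neutrophils. C/EBPβ is known for granulocyte production under stress and for gene expression in macrophages.

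The promoters of Gfi1 and Irf8 are shown because these genes stand on opposite sides of the fate choice and because each window holds the letters of a motif of another of the 7 factors. RefSeq promoter windows (build GRCm38.p6), from 250 bases before to 50 bases after a start site, were found by symbol for 5 of the 7 genes (Cebpa, Cebpb, Gfi1, Irf8 and Klf4), as 7 windows. Spi1 and Cebpe had no entry. Each window was searched on both strands for a C/EBP motif (TTGCNNAA, found in 10.8% of 32851 promoters of this length), a PU.1 motif (GAGGAAG, 13.6%), an IRF motif (GAAA, 2 bases of any kind and GAAA again, 3.44%), a GFI1 motif (AAATCAC, 3.20%) and a KLF motif (GGGTGTGG, 3.56%). The letters TTGCTGAA began 143 bases before a start site of Gfi1 (chr5:107725756-107726055, minus strand). The GFI1 motif lay on the opposite strand of the Irf8 window (chr8:120736108-120736407, plus strand), where it reads GTGATTT and began 176 bases before the start site. None of the 5 motifs was found in the other 5 windows. Capitals mark the motif, and a match describes letters only.
Gfi1: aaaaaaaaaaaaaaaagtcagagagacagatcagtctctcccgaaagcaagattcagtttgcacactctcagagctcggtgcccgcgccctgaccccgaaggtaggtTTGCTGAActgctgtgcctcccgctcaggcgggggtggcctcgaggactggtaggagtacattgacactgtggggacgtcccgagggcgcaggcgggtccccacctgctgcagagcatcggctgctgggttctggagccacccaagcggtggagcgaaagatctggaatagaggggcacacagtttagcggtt
Irf8: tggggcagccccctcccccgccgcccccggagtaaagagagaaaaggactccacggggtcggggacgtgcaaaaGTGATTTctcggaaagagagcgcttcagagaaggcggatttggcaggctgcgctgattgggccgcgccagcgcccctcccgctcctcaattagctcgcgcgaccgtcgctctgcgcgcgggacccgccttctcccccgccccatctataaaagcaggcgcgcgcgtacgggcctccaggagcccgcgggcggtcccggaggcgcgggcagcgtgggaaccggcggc

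Cells were placed in progenitor states by clustering with the 7 genes left out of the genes used, so that a state was not defined by the factors read in it. This gave 34 clusters, of which 29 were named from marker genes into 15 classes, written with "-like" because the names rest on RNA. GMP-like cells (2992 cells, clusters 15, 16, 21 and 22) had all 8 GMP markers, among them Mpo, Elane and Prtn3, in each of the 4 clusters among the genes most specific to it. In clusters 16 and 21 the 10 leading genes held as many markers of another class as of GMP (3 each), among them F13a1, Ms4a6c and Ly6c2. Monocyte-dendritic progenitor-like (MDP-like) cells (2655) were led by Ly86, F13a1 and Ms4a6c, and monocyte-like cells (587) by Lgals3, S100a4 and Cd74. Specific-granule granulocyte-like cells (1329) had all 10 of their markers, such as Camp, Ltf and Ly6g, and late granulocyte-like cells (264) all 8 of theirs, such as Retnlg and Mmp8. Of the late granulocyte-like cells 185 (70.1%) were among the 6% of cells with the highest doublet score, against 4.41% of GMP-like, 0.687% of cluster 24, 7.67% of specific-granule granulocyte-like, 24.5% of monocyte-like, 20.3% of dendritic-like and 35.1% of B-like cells. The late granulocyte-like levels below therefore rest largely on cells of high score, and without them only 2 pools kept 10 cells. A level was read where a pool had at least 10 cells of a class, which held in 5 pools for the 79 dendritic-like and the 168 B-like cells, in 7 pools for late granulocyte-like cells and in 1 pool for the 49 T/NK-like cells, which were left out of the orders of levels.

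Cluster 24 (582 cells, 21 to 127 in a pool) was led by Elane, Ms4a3, Rgcc and Gstm1 and had 7 of the 8 neutrophil progenitor markers. Its 10 leading genes held 4 GMP markers (Elane, Ms4a3, Ctsg and Fcgr3) against 3 of neutrophil progenitors, so it was given no class name and is called by its number. It thus shares leading genes with GMP-like cluster 15, and it is set on the granulocyte side here for its neutrophil progenitor markers alone. Within the KL sort it made up 2.29% ± 0.283 of the cells of the 4 CVT pools and 1.38% ± 0.326 of those of the 4 SPF pools, while GMP-like cells made up 12.1% ± 4.37 and 6.69% ± 1.03. These shares depend on the KL gate and were not tested here.

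The sort labels were checked against their genes. Kit had a UMI in 51.1% of GMP-like cells, 47.9% of cluster 24 and 42.7% of MDP-like cells, but in 9.93% of specific-granule granulocyte-like and 8.52% of monocyte-like cells. All shares in this paragraph were read at the full depth of each cell and depend on it. Median depths were 16486 UMIs in GMP-like, 15068 in MDP-like, 6567 in specific-granule granulocyte-like and 5776 in monocyte-like cells. In CPM the Kit levels lay closer, at 46.3 ± 4.38 in GMP-like, 39.4 ± 4.27 in MDP-like, 15.15 ± 4.51 in specific-granule granulocyte-like and 21.4 ± 14.3 in monocyte-like cells. Ly6g, a gene for a GR1 antigen, had a UMI in 82.8% of specific-granule granulocyte-like cells, and Itgam, the gene for CD11b, in 74.8% of them and in 46.7% of monocyte-like cells. Late granulocyte-like cells had Ly6g in 64.8% and Itgam in 46.6%, beside Kit in 51.1%, and T/NK-like cells had Cd3e in 38.8%. Kit had a UMI in 7.59% of dendritic-like, 11.9% of B-like and 14.3% of T/NK-like cells, whose median depths were 4634, 6701.5 and 4242 UMIs. The Kit levels of these classes over all pools were 16.9 ± 22.4, 17.8 ± 9.48 and 45.1 ± 76.4 CPM. Kit was thus not shown to be low in T/NK-like cells. By RNA, the sorted cells thus included some with genes of antigens that the sort was set to remove.

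Cebpe was highest in specific-granule granulocyte-like cells and next in cluster 24. In specific-granule granulocyte-like cells its level in pools 1 to 8 was 817, 829, 806, 758, 616, 676, 569 and 743 CPM. In cluster 24 it was 257, 256, 234, 253, 217, 254, 308 and 251 CPM, and in MDP-like cells it was 3.61, 2.85, 4.56, 3.30, 4.61, 5.26, 3.55 and 3.18 CPM. The pools of each of these 3 states lay apart from those of the other 2. In the specific-granule state pools 5 to 8 were the lowest for Cebpe, while Gfi1 was lower there in pools 1 to 4 (mean 10.9 against 15.1 CPM). The share of all genes that separated the sets in that state was not counted. The mean levels were 727 ± 96.9 CPM in specific-granule granulocyte-like cells and 254 ± 25.9 in cluster 24, followed by 78.0 ± 19.2 in late granulocyte-like, 54.5 ± 8.91 in GMP-like, 47.3 ± 27.6 in monocyte-like and 29.3 ± 8.27 in basophil/mast-like cells. The pools of late granulocyte-like, GMP-like, monocyte-like and basophil/mast-like cells overlapped from each to the next. Next came multipotent progenitor-like (MPP-like) cells at 10.5 ± 4.61 and lymphoid-primed progenitor-like (LMPP-like) cells at 4.62 ± 1.78 CPM. The MPP-like pools lay below all basophil/mast-like pools, but their highest (16.4 CPM) was above monocyte-like pool 7 (14.0 CPM). MDP-like cells were at 3.87 ± 0.844, long-term stem cell-like (LTHSC-like) cells at 3.29 ± 1.38, megakaryocyte-like at 3.06 ± 1.67, dendritic-like at 2.91 ± 6.5, erythroid-like at 2.45 ± 0.704, B-like at 2.14 ± 3.51 and common myeloid progenitor-like (CMP-like) cells at 2.0 ± 0.849, with each overlapping the next.

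Gfi1, the repressor of the pair, was highest in cluster 24, where its level in pools 1 to 8 was 51.5, 52.1, 36.9, 48.5, 50.6, 54.0, 54.4 and 46.8 CPM. No other class had a pool that high. In GMP-like cells it was 7.57, 11.7, 11.0, 12.8, 14.8, 17.5, 17.1 and 14.5 CPM, lower in pools 1 to 4 than in pools 5 to 8. After cluster 24 (49.3 ± 5.62) came B-like (16.3 ± 9.87), GMP-like (13.4 ± 3.31), specific-granule granulocyte-like (13 ± 2.64), MPP-like (11.3 ± 2.78), LMPP-like (10.5 ± 1.33), LTHSC-like (8.50 ± 4.8), late granulocyte-like (5.55 ± 6.41) and MDP-like cells (5.01 ± 1.02). Basophil/mast-like cells were at 2.32 ± 1.47, and monocyte-like (0.846 ± 1.62, from 5 UMIs), CMP-like (0.610 ± 0.712), megakaryocyte-like (0.529 ± 0.398) and erythroid-like cells (0.393 ± 0.303) lower still. Dendritic-like cells came last, at 0 CPM in the 5 pools read. In this order all neighbours below cluster 24 overlapped. So Gfi1 and Cebpe did not peak in the same state, since Gfi1 was highest in cluster 24 and Cebpe in the specific-granule state.

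Irf8, which drives monocyte and dendritic fates, had its highest level in dendritic-like cells, at 3453 ± 465 CPM in the 5 pools with enough of them. In MDP-like cells its level in pools 1 to 8 was 795, 671, 761, 692, 558, 615, 475 and 690 CPM, and in GMP-like cells it was 494, 371, 417, 384, 305, 304, 250.4 and 367 CPM. In each pool the MDP-like level was the higher. In cluster 24 it was 51.5, 25.4, 37.9, 31.1, 21.2, 12.6, 6.04 and 16.6 CPM, below the GMP-like level of every pool. The order of the means was dendritic-like, MDP-like (657 ± 105), monocyte-like (640.5 ± 291), GMP-like (362 ± 75.8), LMPP-like (191 ± 35.9), B-like (133 ± 45.9), late granulocyte-like (99.6 ± 48.1) and MPP-like (71.2 ± 10.6). It went on with cluster 24 (25.3 ± 14.7), LTHSC-like (23.5 ± 6.22), specific-granule granulocyte-like (15.2 ± 12.6), basophil/mast-like (12.7 ± 7.74), CMP-like (11.2 ± 3.27), megakaryocyte-like (9.84 ± 4.82) and erythroid-like cells (7.43 ± 2.80). Neighbours with no shared pool range were found after dendritic-like, after GMP-like and after MPP-like cells, and all other neighbours overlapped. Late granulocyte-like cells, from 38.7 CPM, still overlapped cluster 24, which reached 51.5 CPM. The monocyte-like level was spread widely, from 368 CPM in pool 7 to 1272 CPM in pool 3.

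Klf4, a factor of monocyte maturation, had its highest level in monocyte-like cells, at 153, 174, 219, 231, 176, 160, 167 and 202 CPM in pools 1 to 8. Every one of these pools was above every pool of the next class, the dendritic-like cells at 67.6 ± 29.3 CPM, which in turn lay above all the rest. B-like (15.8 ± 5.01), MDP-like (9.48 ± 3.80), LMPP-like (7.10 ± 4.67), GMP-like (7.08 ± 2.39), LTHSC-like (5.90 ± 2.89), late granulocyte-like (5.64 ± 3.87), MPP-like (4.91 ± 3.31) and basophil/mast-like cells (4.48 ± 3.80) followed. CMP-like (3.53 ± 3.58), megakaryocyte-like (2.27 ± 1.25), specific-granule granulocyte-like (1.27 ± 1.16, from 14 UMIs), cluster 24 (0.800 ± 0.876, from 10 UMIs) and erythroid-like cells (0.576 ± 0.450) were lowest, and from B-like cells on all neighbours overlapped. MDP-like cells were thus among the high classes for Irf8 but not for Klf4, and monocyte-like cells were high in both.

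**Figure D1:**
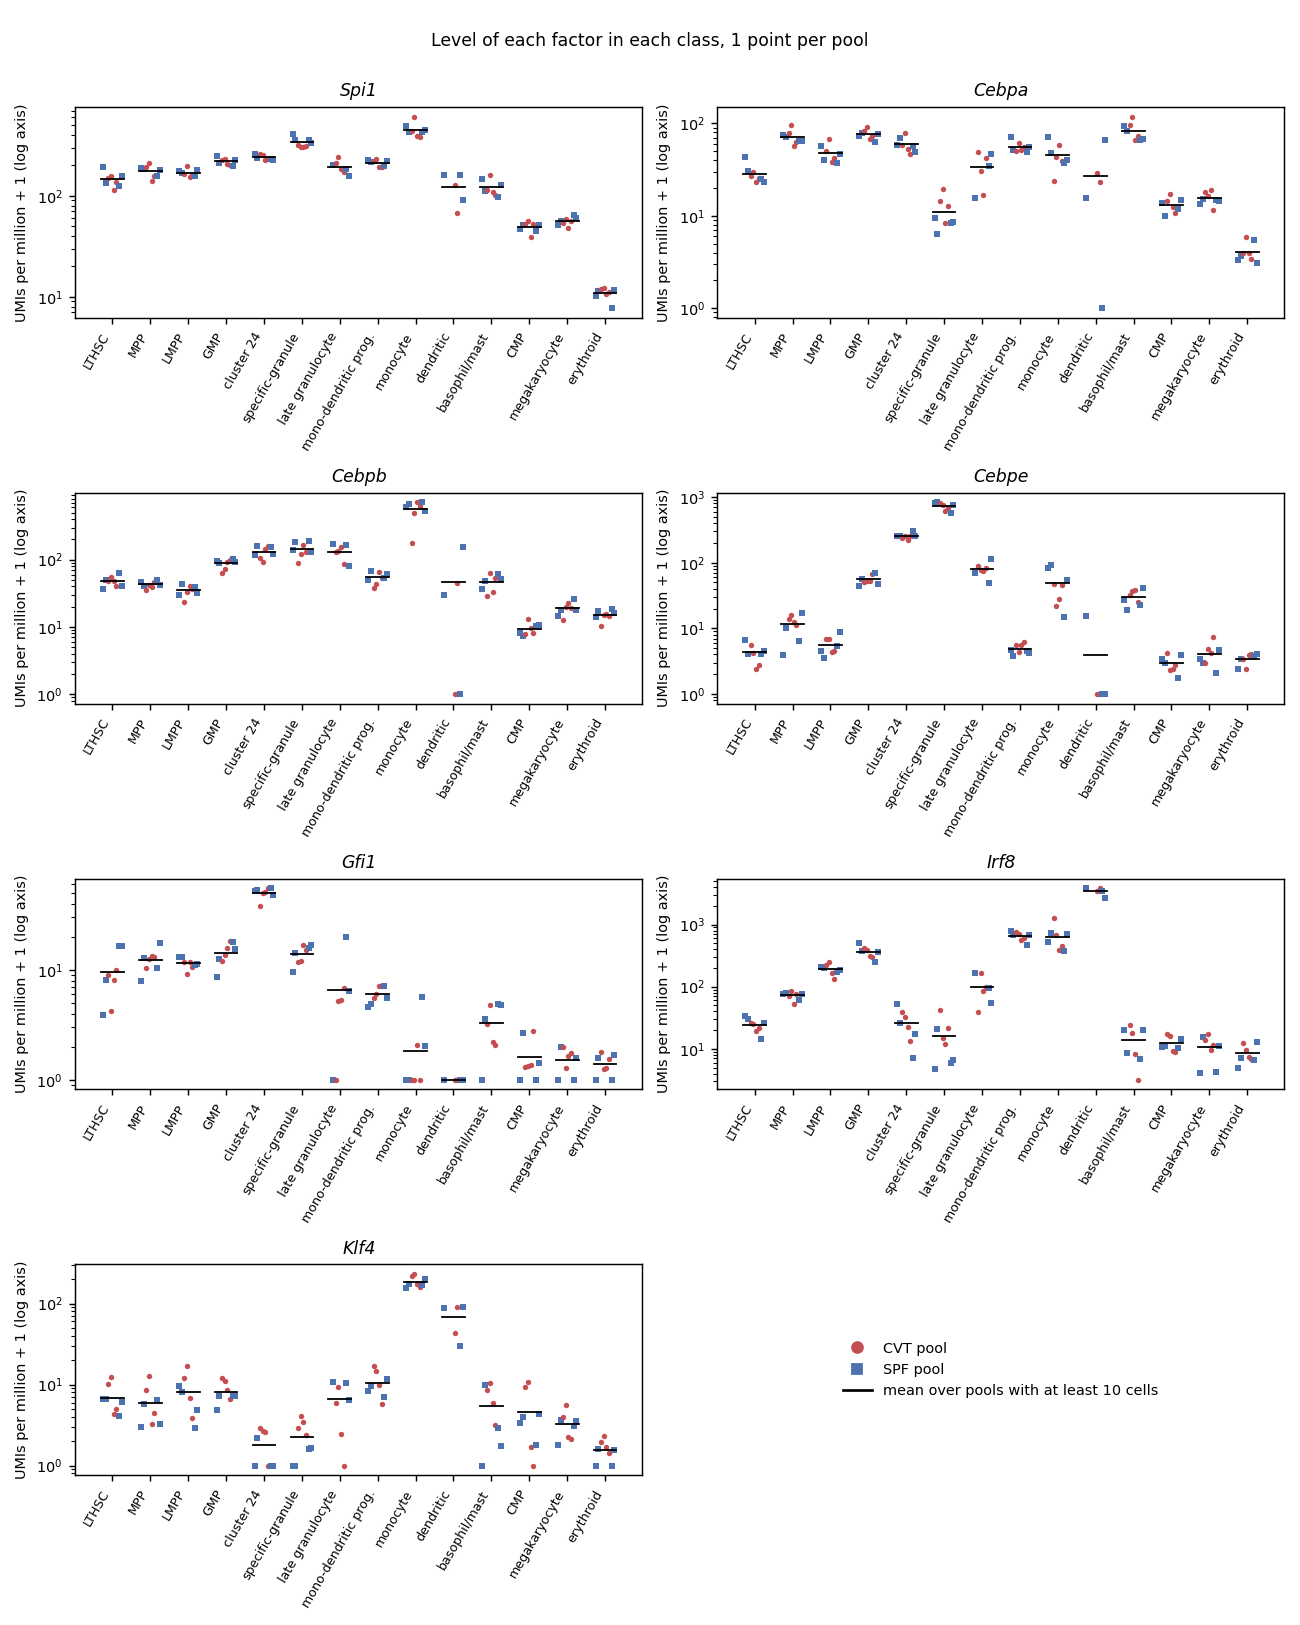
Level of each of the 7 genes (CPM plus 1, log axis) by class, with 1 point for each pool that had at least 10 cells of the class, CVT pools as red circles, SPF pools as blue squares and the mean as a black bar. Cebpe peaks in the specific-granule class at 727 CPM, Gfi1 in cluster 24 at 49.3, Irf8 in the dendritic-like class at 3453 and Klf4 in the monocyte-like class at 185, while CVT and SPF points overlap except for Spi1 and for Klf4 (14 UMIs) in the specific-granule class.

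Spi1, the gene for PU.1, was present on both sides. It was highest in monocyte-like (451 ± 71.4 CPM) and specific-granule granulocyte-like cells (338 ± 35.1), which overlapped, and below a gap came cluster 24 (239 ± 15.7), GMP-like (218 ± 17.5), MDP-like (213 ± 16.0), late granulocyte-like (192 ± 28.4), MPP-like (176 ± 22.9), LMPP-like (168 ± 14.6), LTHSC-like (144 ± 23.7), dendritic-like (121 ± 42.1), basophil/mast-like (120.0 ± 21.7) and B-like cells (84.4 ± 13.7), each overlapping the next. Lower, after another gap, were megakaryocyte-like (55.0 ± 5.13) and CMP-like cells (48.5 ± 5.58), and lowest and apart were erythroid-like cells (9.87 ± 1.42). The pool ranges of GMP-like, MDP-like and cluster 24 cells thus overlapped in Spi1, although cluster 24 was above MDP-like cells in 8 of 8 pools and above GMP-like cells in 7 of 8.

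Cebpa, which is needed to form GMP, was highest in basophil/mast-like (82.2 ± 19 CPM), GMP-like (74.9 ± 8.57) and MPP-like cells (70.2 ± 12.6), then in cluster 24 (58.3 ± 10.8), MDP-like (54.8 ± 7.74), LMPP-like (46.4 ± 10.3) and monocyte-like cells (44.3 ± 14.6). It was lower in late granulocyte-like (32.6 ± 13.5), LTHSC-like (27.7 ± 6.67), dendritic-like (25.9 ± 24), megakaryocyte-like (14.4 ± 2.37), CMP-like (12.2 ± 2.42), specific-granule granulocyte-like (10.0 ± 4.42), B-like (3.52 ± 4.86) and erythroid-like cells (3.10 ± 1.02), and all neighbours in this order overlapped. Within the granulocyte states, Cebpa was thus low where Cebpe was highest.

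Cebpb, the member of the family tied to macrophages and to stress, was highest in monocyte-like cells, at 613, 671, 178, 496, 709, 618, 707 and 534 CPM in pools 1 to 8. Pool 3 stood below the other 7 pools, and it was also the pool with the highest Irf8 in this class. The dendritic markers summed in the monocyte-like class to 802, 4172, 8514, 10118, 2954, 2156, 2272 and 3976 CPM in pools 1 to 8, with UMIs of 9 of 9 markers, Cd74 the most abundant and 0 markers at zero, and their part in these levels was not tested. The 9 monocyte markers summed there to 9944, 7956, 7424, 9412, 8948, 9888, 10028 and 8168 CPM. In pools 3 and 4 this was below the dendritic sum, and these pools had only 29 and 23 monocyte-like cells. After monocyte-like cells (566 ± 174) came specific-granule granulocyte-like (141 ± 33.6), late granulocyte-like (131 ± 35.7), cluster 24 (131 ± 26.0), GMP-like (87.4 ± 13.4), MDP-like (53.2 ± 10.7), LTHSC-like (46.6 ± 8.53), basophil/mast-like (45.9 ± 13.2), dendritic-like (45.6 ± 63.9), MPP-like (41.9 ± 4.63) and LMPP-like cells (33.8 ± 6.64). The lowest were megakaryocyte-like (17.7 ± 4.38), B-like (17.5 ± 18), erythroid-like (14.1 ± 2.39) and CMP-like cells (8.38 ± 1.88), and all neighbours overlapped.

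The granulocyte and the monocyte side were set side by side at an earlier and a later stage. Against MDP-like cells, cluster 24 had 65.7-fold more Cebpe, 9.84-fold more Gfi1 and 2.45-fold more Cebpb, while its Irf8 was 26.0-fold and its Klf4 11.9-fold lower. The MDP-like level of Cebpe (3.87 CPM) and the Klf4 level of cluster 24 (0.800 CPM, 10 UMIs) were near those of erythroid-like cells (2.45 and 0.576), so the folds over them are of uncertain size. In this contrast 3 of the 7 genes lay above with no overlap between the 8 pools of each class, as did 6.5% of all 10746 genes compared, and 2 of the 7 lay below, as did 11.0% of all genes. Spi1 was 1.12-fold higher in cluster 24 and higher in 8 of 8 pools, but its pools overlapped, as did those of Cebpa. These levels are a description and were not tested, since the genes are known for this pattern.

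At the later stage, specific-granule granulocyte-like cells had 15.4-fold more Cebpe and 15.3-fold more Gfi1 than monocyte-like cells. Gfi1 rests there on 5 UMIs, with 5 pools at 0 and pool 7 at 4.67 CPM, and without pool 7 its fold was 42.6. These 2 genes lay above without overlap, as did 3.45% of 8621 genes. Klf4 was 146-fold, Irf8 42.2-fold and Cebpa 4.41-fold lower, 3 genes below without overlap, as were 28.5% of all genes. The Klf4 fold is of uncertain size, since Klf4 rests on 14 UMIs in the granulocyte state, with pools 1 and 2 at 0, and it ran from 129 to 178 with 1 pool left out at a time. Without the 6% of cells with the highest doublet score, an alternative chosen after seeing the data, the folds were 94.0 for Irf8, 193 for Klf4, 6.31 for Cebpa, 25.7 for Gfi1 and 15.8 for Cebpe. At least 10 cells were then left in 7 pools of monocyte-like and 8 of specific-granule granulocyte-like cells. These folds are thus not over the same pools as those above. Spi1 (1.34-fold) and Cebpb (4.01-fold) were lower in the granulocyte state in 8 of 8 pools, with overlapping ranges. The overlap of Cebpb came from monocyte-like pool 3 alone. It was at 178 CPM, where the highest specific-granule pool had 189 and the next monocyte-like pool 496.

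GMP-like cells lay between the branches for both pairs. Cluster 24 had 4.65-fold more Cebpe and 3.70-fold more Gfi1 than GMP-like cells, 2 genes above without overlap where 3.31% of 10869 genes were, and 14.3-fold less Irf8 and 8.85-fold less Klf4, 2 genes below where 5.06% were. MDP-like cells had 14.1-fold less Cebpe and 2.66-fold less Gfi1 than GMP-like cells, 2 genes below without overlap where 3.27% of 11385 genes were. Of the 7 genes, 0 lay above without overlap in that contrast, where 3.61% of genes did. Irf8 was 1.82-fold higher in MDP-like cells and higher in 8 of 8 pools, and Klf4 was higher in 6 of 8 pools, both with overlapping ranges. The GMP-like levels depended on where the clusters were cut. With clusters at resolution 1 (24 clusters), 517 of the 582 cells of cluster 24 lay with 852 cells of cluster 15 in 1 cluster of 1481 cells, which shared 8 of 10 leading genes with cluster 24 and was the only one named GMP. Its level was 161 ± 8.75 CPM for Cebpe, 31.5 ± 4.64 for Gfi1, 110 ± 27.3 for Irf8 and 1.53 ± 1.30 for Klf4. With the 7 genes allowed among the variable genes, of which 4 qualified, 518 cells of cluster 24 lay in a cluster of 907 cells, again named GMP, with Cebpe at 201 ± 15.7 CPM, Gfi1 at 39.2 ± 5.62 and Irf8 at 63.4 ± 15.6, and GMP-like cells as a whole had 90.2 for Cebpe, 20.6 for Gfi1 and 251 for Irf8. In both clusterings the highest class mean of Gfi1 was thus that of the GMP-like cells, which then held most of cluster 24.

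The GMP-like clusters differed among themselves along the same line. Cluster 15, led by Elane and Ms4a3, had Cebpe at 127 ± 16.9 CPM, Gfi1 at 22.4 ± 5.92 and Irf8 at 156 ± 36.8, while cluster 16, led by Ly6c2 and Slpi, had Cebpe at 13.2 ± 2.40, Gfi1 at 8.44 ± 2.90 and Irf8 at 505 ± 89.9. For each of these 3 genes the 8 pools of cluster 15 lay apart from those of cluster 16. The share of all genes that lay apart between these clusters was not counted, so this describes the 3 genes only. Clusters 21 and 22 lay between them, with Cebpe at 30.5 ± 11.3 and 37.4 ± 12 CPM and Irf8 at 419 ± 71.1 and 380.0 ± 102 CPM. Klf4 was 1.62 ± 1.72 CPM in cluster 15 and 12.3 ± 5.93 in cluster 16. Spi1 stayed between 198 ± 29.7 (cluster 22) and 245 ± 35.5 CPM (cluster 21). Within the specific-granule class, cluster 25 had more Cebpe (823 ± 107 CPM) and more Gfi1 (18.1 ± 4.75) than cluster 19 (583 ± 89.0 and 5.20 ± 4.60).

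**Figure D2:**
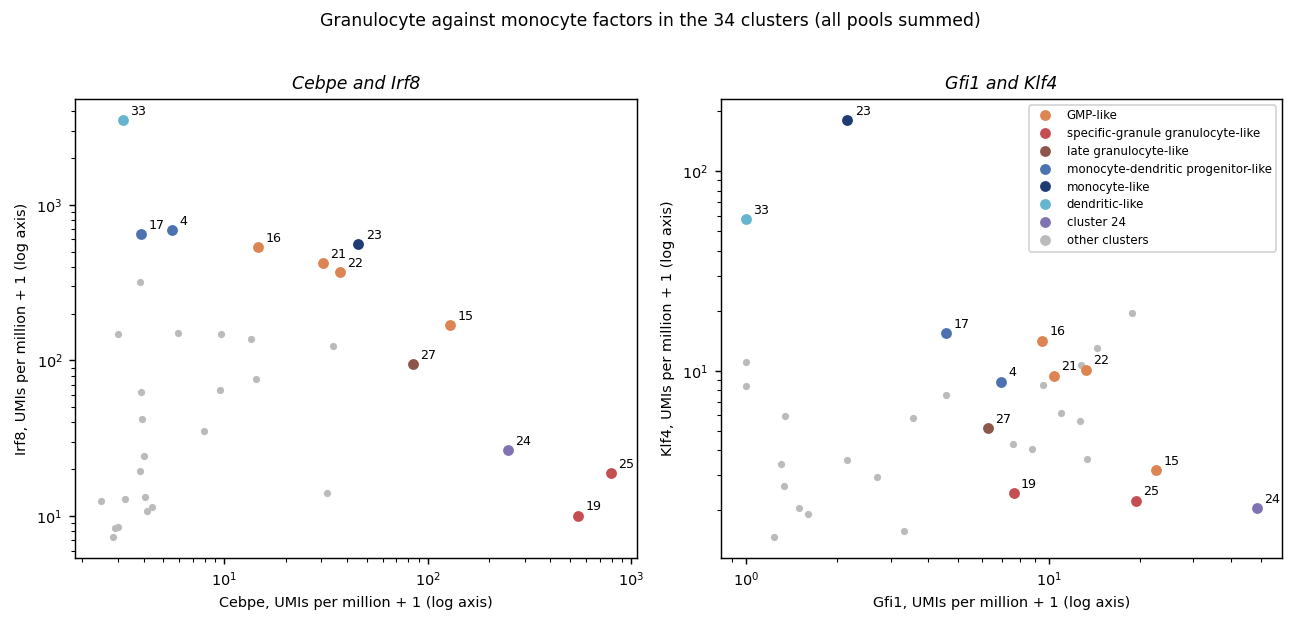
Cebpe against Irf8 and Gfi1 against Klf4 in the 34 clusters (CPM plus 1 in the summed cells of all pools, log axes), 1 point a cluster, coloured by class. Clusters 15, 24 and 25 lie towards high Cebpe and Gfi1, the MDP-like, monocyte-like and dendritic-like clusters towards high Irf8, and the last 2 also towards high Klf4.

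Over the 34 clusters, with cells of all pools summed, Irf8 and Klf4 had a Pearson correlation of 0.715 in log2 CPM and Cebpe and Gfi1 one of 0.556. Across the pairs the values were lower than within them, at 0.0343 for Cebpe and Irf8, -0.127 for Cebpe and Klf4, -0.0458 for Gfi1 and Klf4 and 0.292 for Gfi1 and Irf8. Spi1 correlated at 0.785 with Cebpb and at 0.778 with Cebpa, and Cebpb with Cebpe at 0.732. Values above that of the granulocyte pair were also found for Gfi1 with Spi1 (0.699) and Cebpa (0.577), for Cebpe with Spi1 (0.603) and for Irf8 with Cebpa (0.595) and Spi1 (0.571), so the granulocyte pair was not set apart by this measure. The clusters share their pools and differ in depth, and these correlations are descriptions.

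Among 10762 other genes, those most like each of the 7 over the 34 clusters were found by the same correlation. For Spi1 they were Arl11 (0.957), Tm6sf1 (0.950) and Pkm (0.944), for Cebpa Tmem141 (0.929), Ccl9 (0.920) and Ifitm7 (0.886), and for Cebpb Pi16 (0.894), Slc8b1 (0.891) and Vsir (0.889). Cebpe was most like Mrgpra2b (0.936), Sgms2 (0.917) and Trem3 (0.914), and Gfi1 most like Fbp1 (0.865), Nrg4 (0.851) and E030030I06Rik (0.831). Irf8 was most like Pkib (0.963), Ly86 (0.949), which is among the MDP markers, and Hpse (0.935), and Klf4 most like Tep1 (0.894), Tmem55b (0.885) and Psap (0.877).

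Single cells were read after thinning each to 2759 UMIs, the total of the smallest cell, so that depth did not set the share of cells with a UMI. Erythroid-like cells, which had the lowest mean levels of Spi1, Cebpa, Irf8 and Klf4, are given beside as a comparison, although PU.1 is known to act in early erythroid progenitors. Their share is no firm floor for free RNA, since their cells were deeper than those of the other classes before thinning and Cebpb was seen in more of them (3.80% ± 0.848) than of CMP-like cells (2.29% ± 0.402). Cebpe had a UMI in 77.4% ± 6.88 of specific-granule granulocyte-like cells, 45.7% ± 8.68 of cluster 24 and 12.7% ± 3.22 of GMP-like cells, against 1.08% ± 0.492 of MDP-like and 0.722% ± 0.748 of erythroid-like cells. The MDP-like share was thus within the spread of the erythroid-like one. Before thinning the median depths were 6567 UMIs in specific-granule granulocyte-like cells, 16479.5 in cluster 24, 16486 in GMP-like, 15068 in MDP-like and 23100 in erythroid-like cells. Irf8 had a UMI in all 79 dendritic-like cells, in 78.1% ± 4.62 of MDP-like, 62.8% ± 9.56 of monocyte-like and 52.7% ± 6.99 of GMP-like cells, but in 6.92% ± 3.99 of cluster 24 and 1.93% ± 1.08 of erythroid-like cells.

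Klf4 and Gfi1 were seen in fewer cells. Klf4 had a UMI in 38.8% ± 7.20 of monocyte-like cells (median depth 5776 UMIs before thinning), 2.22% ± 0.963 of MDP-like and 1.87% ± 1.37 of GMP-like cells, against 0.111% ± 0.169 of erythroid-like cells. Gfi1 had a UMI in 11.9% ± 6.64 of cluster 24, 3.10% ± 0.895 of GMP-like and 1.60% ± 0.669 of MDP-like cells, against 0.0210% ± 0.0593 of erythroid-like cells. It had one in 0 of 79 dendritic-like cells (median depth 4634), which allows a share of up to 3.80% with a UMI at the thinned depth, for counting error only, and sets no limit on cells that express the gene. Of the shared factors, Spi1 had a UMI in 70.9% ± 5.56 of monocyte-like, 43.9% ± 3.66 of MDP-like and 43.8% ± 3.82 of GMP-like cells (2.78% ± 0.728 of erythroid-like cells), Cebpb in 69.5% ± 12.2 of monocyte-like cells (3.80% ± 0.848) and Cebpa in 19% ± 1.98 of GMP-like cells (0.963% ± 0.631).

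The pairs were then read together in each thinned cell. In GMP-like cells, 10.5% ± 3.51 had a UMI of the granulocyte pair alone, 48.6% ± 7.26 of the monocyte pair alone, 4.71% ± 1.77 of both and 36.2% ± 4.19 of neither. In cluster 24 the granulocyte pair alone was found in 48.2% ± 10.6 and the monocyte pair alone in 3.17% ± 1.95, with both in 4.02% ± 3.14. In MDP-like cells it was the reverse, with the granulocyte pair alone in 0.656% ± 0.635, the monocyte pair alone in 76.4% ± 4.88 and both in 2.03% ± 0.990. Specific-granule granulocyte-like cells had the granulocyte pair alone in 75.7% ± 6.16 and both in 2.36% ± 1.64, and monocyte-like cells had the monocyte pair alone in 70.8% ± 5.82 and both in 4.84% ± 2.43. Erythroid-like cells had a UMI of the granulocyte pair alone in 0.725% ± 0.743, of the monocyte pair alone in 2.03% ± 1.15 and of both in 0.0182% ± 0.0516. The shares with both depend on depth: without thinning, both pairs had UMIs in 34% ± 4.06 of GMP-like and 12% ± 2.14 of MDP-like cells.

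**Figure D3:**
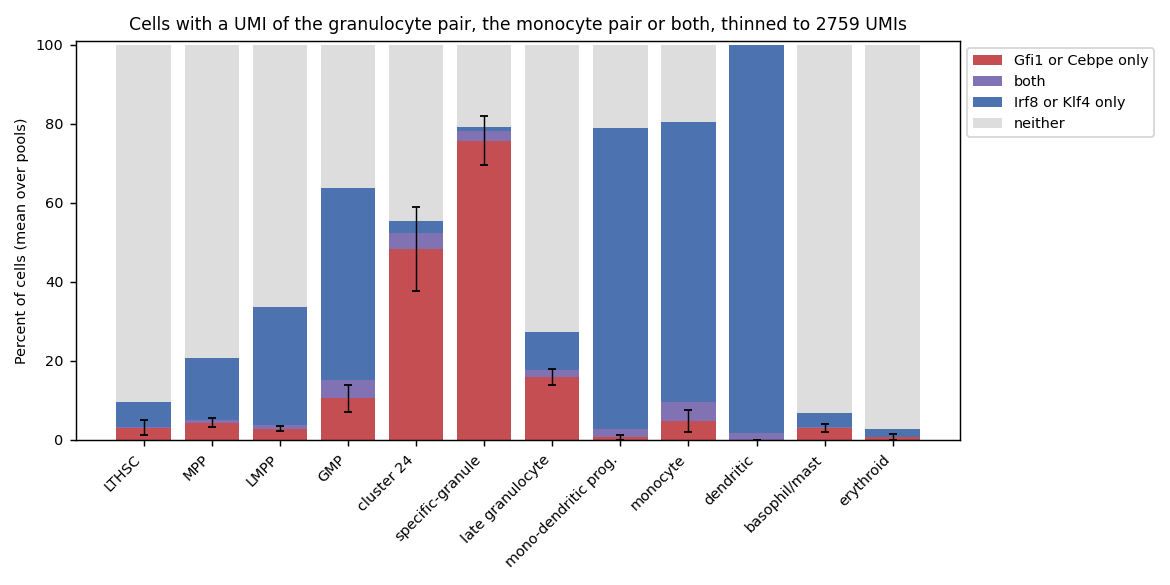
Mean percent of cells over pools, after thinning to 2759 UMIs a cell, with a UMI of the granulocyte pair alone (Gfi1 or Cebpe), the monocyte pair alone (Irf8 or Klf4), both or neither, as stacked bars by class, with error bars for the SD of the first share. The granulocyte pair alone takes 48.2% of cluster 24 and 75.7% of the specific-granule class, and the monocyte pair alone takes 76.4% of MDP-like cells.

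Inside the GMP-like class, cells with a Cebpe UMI had less Irf8, while for Gfi1 the difference over the class lay within its spread. The class joins clusters that differ along this line, so the contrast was also read inside each cluster. The 379 thinned GMP-like cells with a Cebpe UMI had 0.410 ± 0.200 Irf8 UMIs a cell and the 2613 without had 1.07 ± 0.195, lower with Cebpe in 8 of 8 pools. Without the cells of high doublet score, an alternative chosen after seeing the data, these means were 0.420 ± 0.196 and 1.08 ± 0.202. In cluster 15, which held 246 of the 379 cells, the means were 0.206 ± 0.160 with and 0.509 ± 0.169 without Cebpe, lower in 8 of 8 pools, and in cluster 21 they were 0.517 ± 0.396 and 1.18 ± 0.187, again lower in 8. In cluster 22 they were 0.440 ± 0.362 and 1.05 ± 0.202 (lower in 6 of 7 pools), and in cluster 16 they were 1.44 ± 0.747 and 1.46 ± 0.238 (lower in 4 and higher in 3 pools). In cluster 24, which lies outside the class and had 270 cells with a Cebpe UMI, the means were 0.0885 ± 0.0562 and 0.0701 ± 0.0533. There Irf8 was lower with Cebpe in 3 and higher in 5 pools. These readings inside clusters were chosen after seeing the data. The 90 cells with a Gfi1 UMI had 0.896 ± 0.490 Irf8 UMIs against 0.993 ± 0.199, lower in 6 and higher in 2 pools. The clusters differed in direction for Gfi1, with Irf8 at 0.182 ± 0.217 with and 0.443 ± 0.166 without a Gfi1 UMI in cluster 15 (43 cells with, lower in 6 of 8 pools), 1.70 ± 0.645 and 1.46 ± 0.233 in cluster 16 (18 cells, higher in 4 of 7), 1.85 ± 1.20 and 1.19 ± 0.123 in cluster 21 (15 cells, higher in 4 of 6) and 1.01 ± 0.994 and 0.996 ± 0.204 in cluster 22 (14 cells, higher in 3 of 7). Cebpa was also lower in the 1629 cells with an Irf8 UMI (0.189 ± 0.0279) than in the 1363 without (0.258 ± 0.0428), in 8 of 8 pools. Spi1 was higher with Irf8 in 7 of 8 pools (0.636 ± 0.0787 against 0.573 ± 0.0416). Cells with a Klf4 UMI were few (70) and had 1.73 ± 0.535 Irf8 UMIs against 0.976 ± 0.210, higher in 6 pools and lower in 1. Cells with a Gfi1 UMI had 0.309 ± 0.234 Cebpe UMIs against 0.161 ± 0.0487, higher in 6 of 8 pools. Cells of a pool are not replicates, and these contrasts within cells were not tested.

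The states in which each factor was high are not always those that held most of its transcripts in KL marrow. Specific-granule granulocyte-like cells, 4.45% of cells, held 54.3% ± 15.8 of the Cebpe UMIs of a pool, while GMP-like cells held 18.5% ± 9.54 and cluster 24 16.1% ± 5.66. For Irf8, MDP-like cells held 43.5% ± 3.93, GMP-like cells 27.4% ± 7.05 and LMPP-like cells 13.5% ± 3.5. Monocyte-like cells, 1.96% of cells, held 38.0% ± 22.1 of the Klf4 UMIs. Gfi1 UMIs came from GMP-like (26.0% ± 8.50), LMPP-like (19.5% ± 6.62) and cluster 24 cells (18.7% ± 2.92). GMP-like cells held on average 22.6% ± 8.13 of the Spi1, 28.9% ± 8.46 of the Cebpa and 23.7% ± 9.60 of the Cebpb UMIs, the highest means for these genes. The order was not the same in every pool, since the GMP-like share was the largest in 5 pools for Spi1, 7 for Cebpa and 5 for Cebpb, where monocyte-like cells led in pools 1, 5 and 7. The specific-granule share of Cebpe was the largest in 7 pools, the monocyte-like share of Klf4 in 6, the GMP-like share of Gfi1 in 6 and the MDP-like share of Irf8 in all 8.

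The housing comparison asks whether 1 month in a conventional facility changed these factors in KL marrow. In all KL cells of pools 1 to 8, Cebpe was at 48.3, 29.8, 36.4, 30.6, 47.3, 56.0, 66.2 and 43.7 CPM, Irf8 at 199, 184, 208, 219, 145, 162, 136 and 179 CPM, and Cebpb at 51.4, 49.3, 32.1, 40.3, 64.5, 57.6, 81.4 and 53.7 CPM. For each of these genes the CVT pools (3, 4, 5 and 6) and the SPF pools (1, 2, 7 and 8) overlapped. Gfi1 was at 4.15, 6.55, 6.18, 6.60, 7.59, 8.50, 8.88 and 8.35 CPM and Klf4 at 6.83, 5.56, 7.75, 8.53, 7.59, 5.09, 8.38 and 7.83 CPM, again with overlap. Spi1 ran from 125 to 151 CPM and Cebpa from 31.2 to 47.6 CPM over the 8 pools.

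**Figure D4:**
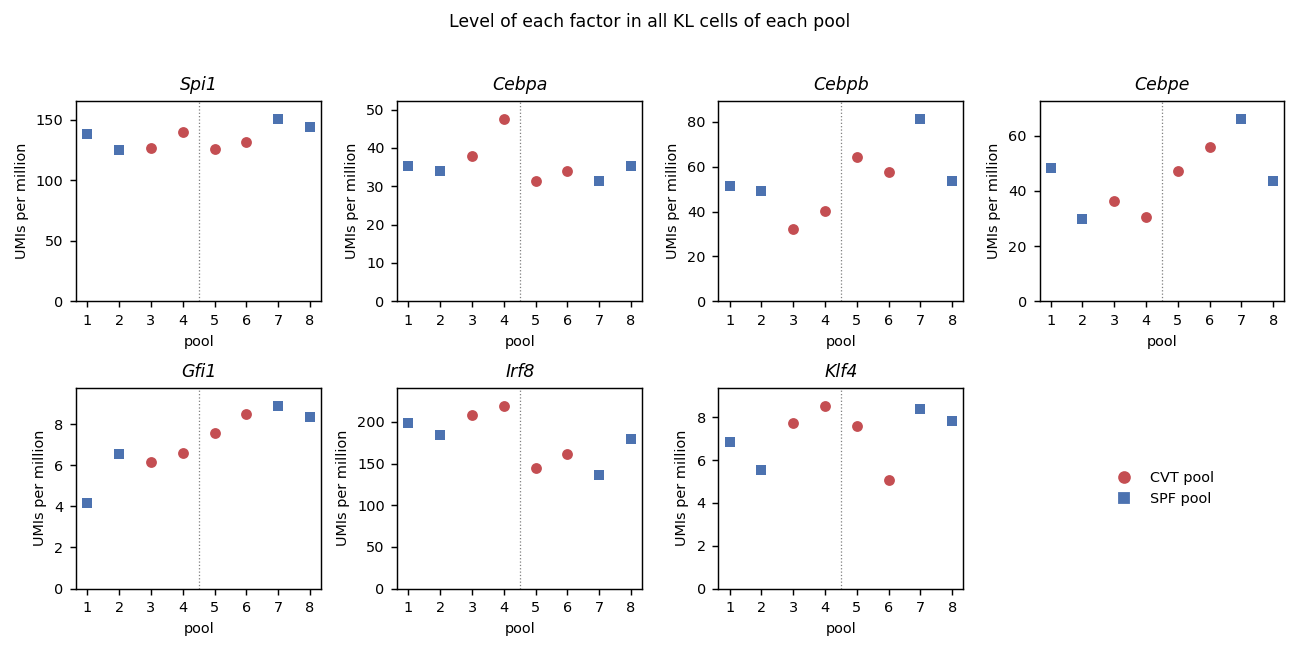
Level of each of the 7 genes in all KL cells of each pool (CPM), CVT pools as red circles and SPF pools as blue squares, with a dotted line between pools 4 and 5. The colours overlap for each gene, while Irf8 is lower and Cebpb and Gfi1 are higher in pools 5 to 8 than in pools 1 to 4.

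None of the 7 genes passed the test for housing in KL cells. The log2 ratio of CVT over SPF was 0.20 for Cebpa (95% interval -0.07 to 0.48), 0.13 for Irf8 (-0.20 to 0.46), 0.08 for Gfi1 (-0.39 to 0.55), 0.08 for Klf4 (-0.32 to 0.48), -0.04 for Spi1 (-0.21 to 0.13), -0.09 for Cebpe (-0.64 to 0.45) and -0.23 for Cebpb (-0.75 to 0.29). The edgeR quasi-likelihood test with Benjamini-Hochberg adjustment called 0 of 13092 genes (0%), with adjusted p from 0.757 to 0.952 for the 7, while 921 genes had an unadjusted p under 0.05 and DESeq2 called 13, with none of the 7 among them. In sums over KL cells, fewer cells of a type and less RNA per cell cannot be told apart. The specific-granule markers summed to 24458, 10061, 9384, 6111, 28563, 26603, 47365 and 18291 CPM in pools 1 to 8, with UMIs of 10 of 10 markers, S100a8 the most abundant and 0 at zero, and their part in the Cebpe and Cebpb levels was not tested. Without the specific-granule and late granulocyte-like cells, an alternative chosen after seeing the data, the log2 ratio of Cebpe was 0.36 and that of Spi1 0.01, both still not called.

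At matched states, 26 of the 28 combinations of gene and class passed the filter on low counts, all but Klf4 in specific-granule granulocyte-like and Gfi1 in monocyte-like cells. In GMP-like cells Klf4 was at 3.79, 6.13, 11.0, 10.1, 7.63, 5.68, 6.17 and 6.13 CPM in pools 1 to 8. Of the 4 CVT pools, 3 were above all SPF pools and pool 6 lay within their range, and the log2 ratio was 0.66 (95% interval 0.21 to 1.12). The edgeR quasi-likelihood test with Benjamini-Hochberg adjustment did not call it (adjusted p = 0.609), and within pools 1 to 4 the log2 ratio of the group means was 1.09, within pools 5 to 8 it was 0.11. The other 6 genes had log2 ratios from -0.18 (Cebpb) to 0.14 (Cebpa) in GMP-like cells, with Cebpe at 0.07, Gfi1 at 0.11, Irf8 at -0.03 and Spi1 at 0.01. Of 9945 genes, 0 were called (0%), 676 had an unadjusted p under 0.05 and DESeq2 called 1.

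In specific-granule granulocyte-like cells, Spi1 was at 407, 358, 320.2, 306, 307, 310.4, 357 and 335 CPM in pools 1 to 8. All CVT pools were below all SPF pools, as for 1.31% of 7119 genes (1.45% lay above), and the log2 ratio was -0.27 (95% interval -0.51 to -0.03). Irf8 was at 3.68, 19.9, 41.8, 14.1, 10.9, 20.4, 4.89 and 5.69 CPM, from 154 UMIs. The level of Irf8 in specific-granule granulocyte-like cells, 15.2 CPM over the pools, was 7.53 without the 6% of cells with the highest doublet score, an alternative chosen after seeing the data, and 9.69 as a mean over cells. Of the 4 SPF pools, 3 were below all CVT pools and pool 2 lay within their range, and the log2 ratio was 1.43 (95% interval 0.51 to 2.35). Neither passed the edgeR quasi-likelihood test with Benjamini-Hochberg adjustment (adjusted p = 0.733 for each), which called 0 of 5960 genes (0%), with 399 at an unadjusted p under 0.05 and 1 called by DESeq2. With no filter on low counts the Irf8 ratio of 1.43 was called (edgeR quasi-likelihood with Benjamini-Hochberg, adjusted p = 0.000817), and over the 14 alternatives the ratio ran from 1.02 to 1.99 and the adjusted p from 0.000817 to 0.99998. The MDP markers summed in the specific-granule class to 31.9, 31.8, 77.9, 50.02, 55.4, 76.9, 48.9 and 41.1 CPM in pools 1 to 8, with UMIs of 8 of 8 markers, Ms4a6c the most abundant and 0 at zero, and their part in the Irf8 difference was not tested. Log2 ratios were 0.63 for Cebpa, -0.37 for Cebpb, -0.08 for Cebpe and -0.04 for Gfi1. Klf4, which did not pass the filter and was not tested, was at 0 to 0.632 CPM in the SPF and 1.36 to 3.13 CPM in the CVT pools, from 14 UMIs in all.

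In MDP-like cells the log2 ratios were 0.49 for Cebpe (95% interval -0.01 to 0.99), 0.41 for Klf4 (-0.17 to 0.98), 0.33 for Gfi1 (-0.12 to 0.79), 0.04 for Irf8 (-0.18 to 0.26), 0.02 for Cebpa, 0.01 for Spi1 and -0.24 for Cebpb. The edgeR quasi-likelihood test with Benjamini-Hochberg adjustment called 0 of 9982 genes (0%), 743 had an unadjusted p under 0.05 and DESeq2 called 11, with none of the 7 among them. In monocyte-like cells Cebpe had a log2 ratio of -0.64 (-1.48 to 0.20), Cebpb of -0.28 (-0.82 to 0.26), Irf8 of 0.21 (-0.37 to 0.80), Klf4 of 0.10 (-0.22 to 0.41), Cebpa of -0.07 and Spi1 of -0.03. Here edgeR called 0 of 5333 genes (0%), 184 had an unadjusted p under 0.05 and DESeq2 called 1. Irf8 had means of 657 ± 88.7 CPM in the CVT and 658 ± 133 CPM in the SPF pools of MDP-like cells.

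**Figure D5:**
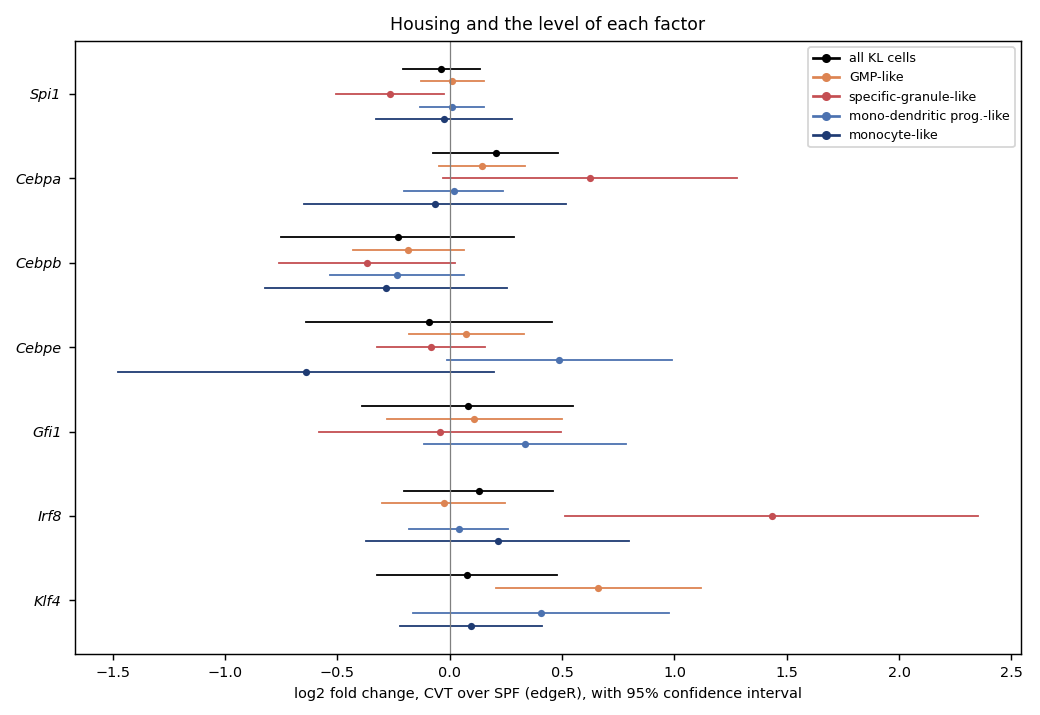
Log2 ratio of CVT over SPF pools for each gene with its 95% interval from edgeR, in all KL cells and in 4 classes. The intervals span 0 except for Klf4 in GMP-like cells (0.66) and Spi1 (-0.27) and Irf8 (1.43) in specific-granule granulocyte-like cells, and no gene passed the adjusted test.

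Whether the housing ratio differed between progenitors of the monocyte side and GMP-like cells was tested with MDP-like and GMP-like cells of the same pools. The log2 difference of the housing ratios (MDP-like minus GMP-like) was 0.39 for Cebpe (95% interval -0.10 to 0.89), 0.20 for Gfi1 (-0.27 to 0.68), 0.06 for Irf8 (-0.02 to 0.14), -0.00 for Spi1 (-0.10 to 0.10), -0.09 for Cebpa (-0.27 to 0.09), -0.11 for Cebpb (-0.30 to 0.07) and -0.23 for Klf4 (-0.69 to 0.23). The edgeR quasi-likelihood test with Benjamini-Hochberg adjustment called 0 of 10289 genes (0%), with 502 at an unadjusted p under 0.05, and DESeq2 was not run for it. The granulocyte side itself was set against the monocyte side in 2 alternatives chosen after seeing the data. For MDP-like cells minus cluster 24, the log2 difference was 0.57 for Cebpe (95% interval 0.08 to 1.07), 0.39 for Gfi1 (-0.12 to 0.90), -0.34 for Irf8 (-0.80 to 0.13) and -1.55 for Klf4 (-4.02 to 0.91), and edgeR with the same adjustment called 3 of 8816 genes (0.034%), none of the 7 (lowest adjusted p = 0.845, Cebpe). For monocyte-like minus specific-granule granulocyte-like cells it was -1.27 for Irf8 (-1.94 to -0.60), -1.95 for Klf4 (-3.47 to -0.43), -0.49 for Cebpe (-1.18 to 0.21) and -1.45 for Gfi1 (-4.01 to 1.11), and 0 of 6661 genes were called (0%). Klf4 in cluster 24 and in the specific-granule class and Gfi1 in monocyte-like cells rest there on 14 UMIs or fewer.

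Partners and targets of the factors were read as 6 lists of 68 genes in all, of which 67 were tested in KL cells and 0 were called in either direction. For the 13 genes listed as regulators acting with Spi1 the median log2 ratio was -0.11 (3 above and 10 below 0), against -0.01 over all genes tested. The genes of lowest p in it were Cbfb (-0.12), the partner of RUNX1, and Gata2 (-0.17). The C/EBP family and its regulators (7 of 8 tested) had a median of -0.14, with Trib3 (-0.73) and Hoxa9 (-0.14) named by the same rule, and the 7 genes of the Gfi1 paralog and corepressors a median of -0.03, with Per3 (-0.20) and Rcor1 (0.07). Per3 is a gene of the circadian clock and not a paralog or known corepressor of Gfi1, although its list carries that name. The 15 monocyte and dendritic regulators had a median of -0.15 (Irf2 -0.24, Id2 -0.49) and the 12 monocyte target genes one of 0.03 (Fcgr1 -1.29, Cd68 -0.28).

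The 13 granulocyte target genes had a median log2 ratio of -0.39 in KL cells, with 4 above and 9 below 0. Those of lowest p were above 0, namely Elane (0.49, 95% interval 0.21 to 0.77) and Prtn3 (0.38, 0.15 to 0.61), which code for proteases of the primary granules. Neither passed the edgeR quasi-likelihood test with Benjamini-Hochberg adjustment (adjusted p = 0.636 for each). GMP-like cells and cluster 24 made up more of the cells of the CVT pools (12.1% and 2.29%) than of the SPF pools (6.69% and 1.38%), and their part in the Elane and Prtn3 ratios was not tested. The GMP-like shares overlapped between the groups, at 14.5%, 16.8%, 7.10% and 9.98% in CVT pools 3 to 6 against 6.14%, 7.75%, 5.52% and 7.34% in SPF pools 1, 2, 7 and 8. The cluster 24 shares did not overlap, at 2.62%, 2.35%, 1.935% and 2.26% against 1.11%, 1.17%, 1.405% and 1.83% in the same pools. Inside GMP-like cells the log2 ratio was 0.07 (-0.02 to 0.17) for Prtn3 and 0.06 (-0.05 to 0.18) for Elane. Fcnb, the gene of this list with the lowest p in GMP-like cells, had a log2 ratio of 0.61 (-0.12 to 1.34) there. Inside MDP-like cells the log2 ratio was 0.06 (-0.03 to 0.16) for Prtn3 and 0.21 (0.02 to 0.39) for Elane. For Elane the difference of the housing ratios (MDP-like minus GMP-like) was 0.14 (0.06 to 0.23), and none of these values was called. In GMP-like cells the medians of the 6 lists ran from -0.07 to 0.16 and 0 of 56 genes tested were called. All 11 monocyte and dendritic regulators tested there were above 0, with a median of 0.16 against 0.00 over all genes, and Egr1 (0.79) and Klf6 (0.97) had the lowest p of the list. In KL cells this list had 4 above and 11 below 0, and in specific-granule granulocyte-like cells 2 above and 4 below. It had 8 above and 3 below in MDP-like and 9 above and 3 below in monocyte-like cells. The 10 monocyte target genes tested in GMP-like cells had 3 above and 7 below 0 (median -0.07), with Cd14 (0.75) and F13a1 (-0.12) of lowest p. The C/EBP family and its regulators had 4 above and 1 below 0 in GMP-like cells (median 0.11), with Trib1 (0.86) and Ddit3 (0.26) named by the same rule.

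In the other fits 0 of the genes tested in these lists were called, among 41 in specific-granule granulocyte-like, 55 in MDP-like and 52 in monocyte-like cells and 57 in the test between classes. The list medians ran from -0.09 to 0.04 in specific-granule granulocyte-like, from -0.05 to 0.12 in MDP-like and from -0.24 to 0.18 in monocyte-like cells. Of the 4 monocyte target genes tested in specific-granule granulocyte-like cells, 1 was above and 3 were below 0 (median -0.09), with Ms4a6c, also an MDP marker, at 1.21 (95% interval 0.70 to 1.72) and Ctss at -0.28 (-1.09 to 0.53). In MDP-like cells the C/EBP family and its regulators had 4 above and 1 below 0 (median 0.07), with Trib1, whose product directs the decay of C/EBPα, at 1.30 (0.50 to 2.09) and Ddit3 at 0.39 (-0.07 to 0.84). The regulators acting with Spi1 had 8 above and 3 below 0 there (median 0.03), with Gata1 at 1.05 (0.36 to 1.75) and Cbfb at -0.14 (-0.29 to 0.01). Gata1 is also among the 11 erythroid markers. These summed in MDP-like cells to 127, 185, 241, 230, 227, 237, 131 and 244 CPM in pools 1 to 8. Car1 was the most abundant of them, and their part in the Gata1 ratio was not tested. In monocyte-like cells 2 granulocyte target genes were above and 11 below 0 (median -0.24), with Fcnb at -1.11 (-1.88 to -0.35) and Lyz2 at -0.24 (-0.58 to 0.10). The monocyte target genes there had 1 above and 10 below 0 (median -0.17), with Fcgr1 at -0.80 (-1.43 to -0.17), and the regulators acting with Spi1 had 7 above and 1 below 0 (median 0.18).

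Because each set of 4 pools held both groups, the levels were also compared between the sets. In KL cells Irf8 was higher in each of pools 1 to 4 (mean 203 CPM) than in any of pools 5 to 8 (155), 1 of the 7 genes above without overlap where 11.0% of 13562 genes were. Cebpb (43.3 against 64.3 CPM) and Gfi1 (5.87 against 8.33) were lower in each of pools 1 to 4, 2 of the 7 where 7.8% of genes were. In GMP-like cells Irf8 was again higher in pools 1 to 4 (417 against 307 CPM), 1 of the 7 where 4.26% of 10647 genes were, and Gfi1 lower (10.7 against 16.0), 1 of the 7 where 3.8% of genes were. In LTHSC-like cells Cebpa and Klf4 were higher in pools 1 to 4 without overlap, and in MPP-like cells Spi1 and Cebpa. So were Irf8 and Klf4 in LMPP-like cells, Spi1, Cebpa and Irf8 in cluster 24, Cebpe in the specific-granule class and Cebpa in basophil/mast-like cells. Gfi1 in the specific-granule class and Cebpe in erythroid-like cells were lower. MDP-like, monocyte-like, CMP-like and megakaryocyte-like cells had none apart. Shares of all genes were not counted for these classes. Within pools 1 to 4 and within pools 5 to 8 the log2 ratio of the CVT and SPF means in KL cells was 0.16 and -0.04 for Irf8, -0.22 and -0.09 for Cebpe, 0.26 and -0.10 for Gfi1, 0.39 and -0.35 for Klf4, -0.48 and -0.15 for Cebpb, 0.30 and -0.03 for Cebpa and 0.02 and -0.20 for Spi1. Only Cebpe and Cebpb had the same sign in both sets, and the difference between the sets was not tested.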

How the data were processed

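The deposited count table holds UMI counts per gene and cell that the authors made with Cell Ranger (version not given in the sources used here), with mm9 as the genome in the submitters' processing notes. Promoter coordinates are from RefSeq GRCm38.p6, matched by symbol. Each cell was given to a pool by the number after its barcode, read as the number in the sample description (mouse1 to mouse8), a map that no file states. The 7 genes and all gene lists were chosen with earlier results of these data known. All deposited cells were kept. UMIs per 10000 were log-transformed, and 1000 variable genes without the 7 members, 30 principal components, a shared-neighbour graph of 30 neighbours and Leiden at resolution 2 gave the clusters. A cluster took the class with the largest share of its markers among the 100 genes most specific to the cluster, when these held at least 3 markers and its 10 leading genes did not hold more markers of another class. It stayed unnamed where its cells had few UMIs and no leading marker. This rule was set after the clusters were seen. Scrublet's own threshold called 105 cells (0.351%), so leaving out the 6% of cells of each pool with the highest score (1794 cells) was added after seeing the data, as was leaving out the specific-granule and late granulocyte clusters. Levels needed at least 10 cells in a pool and tests at least 20 in every pool. Counts summed per pool were tested with the edgeR quasi-likelihood test (TMM, filterByExpr), adjusted by Benjamini-Hochberg over all genes tested at 0.05, and the difference between classes with pool as a block. DESeq2, other size factors, no filter, the pool sets as a block, stricter cells, other clusters and each pool left out in turn were alternatives. Named genes were the 7 members, for each the 3 genes of highest correlation over clusters with at least 500 UMIs, and in each list the genes called or else the 2 of lowest p. The code was tested on simulated data. Tools were edgeR 4.0.16 and DESeq2 1.42.0 in R 4.3.3, and scanpy 1.11.5, leidenalg 0.10.2, igraph 0.11.9, scikit-learn 1.9.0, matplotlib 3.10.9, pandas 2.3.3, scipy 1.17.1 and numpy 2.4.6 in Python 3.11.15.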

Additional observations from a re-analysis of the deposited data

Results flagged for a closer look

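In groups of 4 pools, the highest or lowest pool was marked where its gap to the nearest other pool, divided by the range of the group, passed Dixon's 95% critical value. This marked 8 of 94 groups, and chance marks about 1 in 20. In all KL cells of the SPF group, pool 7 had Cebpb at 81.4 CPM where the other 3 pools had 49.3 to 53.7. In GMP-like cells, pool 6 had Cebpe at 66.3 CPM where the other CVT pools had 50.2 to 52.1, and pool 1 had Klf4 at 3.79 CPM where the other SPF pools had 6.13 to 6.17. In specific-granule granulocyte-like cells, pool 2 had Irf8 at 19.9 CPM where the other SPF pools had 3.68 to 5.69. In monocyte-like cells, pool 5 had Gfi1 at 1.08 CPM where the other CVT pools had 0. In cluster 24, pool 7 had Cebpe at 308 CPM where the other SPF pools had 250.7 to 257. Klf4 in cluster 24, with 10 UMIs in all, was at 0 in pool 6 where the other CVT pools had 1.63 to 1.92, and at 1.21 in pool 2 where the other SPF pools had 0.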

How the results depend on the processing

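Housing ratios of the 7 genes took 582 values under alternatives. The sign differed from the reported one in 52 of them, spread over 22 of 40 combinations of gene and fit, and 1 value passed the threshold, Irf8 in specific-granule granulocyte-like cells (1.43) with no filter on low counts. Klf4 in GMP-like cells at resolution 1, Cebpa and Irf8 in specific-granule granulocyte-like cells without the 6% of cells of highest doublet score, and Cebpa there without pool 6 did not pass the filter and gave no value. No reported ratio was called, and the cause of the changes of sign was not tested. Of 497 alternative levels, 474 were within 1 SD over pools of the reported level. A level with a wide spread over pools could move far and still count as within 1 SD. Irf8 in specific-granule granulocyte-like cells did so, at 15.2 ± 12.6 CPM and at 7.53 without the cells of highest doublet score.

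Genes called for housing numbered 0 in every reported fit. DESeq2 called 13 in KL cells, 1 in GMP-like, 1 in specific-granule granulocyte-like, 11 in MDP-like and 1 in monocyte-like cells. With no filter on low counts edgeR called 40 in GMP-like, 29 in specific-granule granulocyte-like, 58 in MDP-like and 17 in monocyte-like cells. With the pool sets as a block it called 4 in KL, 5 in GMP-like and 1 in MDP-like cells, with none of the 7 genes among them. Leaving out 1 pool at a time gave 0 to 5 in GMP-like (5 without pool 6, 1 without pool 7), 0 to 1 in specific-granule granulocyte-like (1 without pool 5 and without pool 8), 0 to 11 in MDP-like (11 without pool 6), 0 to 1 in monocyte-like cells (1 without pool 6) and 0 to 3 for the test between classes (3 without pool 3, 2 without each of pools 5, 7 and 8, 1 without pool 4). With clusters at resolution 1 the test between classes called 2, with cluster 24 in place of GMP-like cells 3, and between specific-granule granulocyte-like and monocyte-like cells 0. The cause was not tested.

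Signs changed as follows (log2 ratio of CVT over SPF). Without the specific-granule and late granulocyte-like clusters, Spi1 was 0.0127 and Cebpe 0.359 in KL cells. Without the 6% of cells with the highest doublet score, Cebpe was 0.00637 and Gfi1 0.0848 in specific-granule granulocyte-like cells. With clusters at resolution 1, Cebpe was -0.000336 and Irf8 0.0237 in GMP-like cells, Irf8 was -0.0112 in MDP-like cells, and the difference between classes was 0.0210 for Cebpb, -0.0179 for Irf8 and 0.272 for Klf4. With cluster 24 in place of GMP-like cells the difference between classes was -0.335 for Irf8, and between specific-granule granulocyte-like and monocyte-like cells it was 0.233 for Spi1, 0.0120 for Cebpb, -0.487 for Cebpe, -1.45 for Gfi1 and -1.27 for Irf8. With 1 pool left out at a time, the ranges in KL cells were -0.0812 to 0.0168 for Spi1, -0.255 to 0.135 for Cebpe, -0.0852 to 0.207 for Gfi1 and -0.0271 to 0.212 for Klf4. In GMP-like cells they were -0.0246 to 0.0537 for Spi1, -0.0249 to 0.189 for Cebpe, -0.0152 to 0.232 for Gfi1 and -0.158 to 0.118 for Irf8, and in specific-granule granulocyte-like cells -0.203 to 0.0771 for Gfi1. In MDP-like cells they were -0.0456 to 0.0519 for Spi1, -0.0575 to 0.118 for Cebpa and -0.0690 to 0.128 for Irf8, in monocyte-like cells -0.164 to 0.0541 for Spi1, -0.413 to 0.162 for Cebpa and -0.234 to 0.433 for Irf8, and between classes -0.0233 to 0.0282 for Spi1.

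Levels moved mainly with the clusters. At resolution 1, GMP-like cells had Cebpe at 161, Gfi1 at 31.5, Irf8 at 110 and Klf4 at 1.53 CPM, and MDP-like cells had Cebpa at 67.4, Cebpb at 71.0, Cebpe at 8.50 and Gfi1 at 6.91. At that resolution Gfi1 was 17.2 in specific-granule granulocyte-like, Cebpa 34.7 in LTHSC-like, Irf8 85.7 in MPP-like, Cebpa 103 and Cebpe 40.5 in basophil/mast-like, and Spi1 15.5 and Cebpa 4.55 in erythroid-like cells. With the 7 genes allowed among the variable genes (4 qualified), GMP-like cells had Cebpe at 90.2, Gfi1 at 20.6 and Irf8 at 251, specific-granule granulocyte-like cells Gfi1 at 17.1, MDP-like cells Cebpe at 2.90, LTHSC-like cells Cebpa at 34.8 and erythroid-like cells Spi1 at 13.1 CPM. As a mean over cells, the level of Cebpe in basophil/mast-like cells was 19.8 CPM. In both clusterings most of cluster 24 (88.8% and 89.0% of its cells) lay in a cluster named GMP. Without thinning, both pairs had UMIs in 34%, 7.17%, 12% and 13.7% and neither in 3.29%, 9.24%, 1.26% and 6.39% of GMP-like, specific-granule granulocyte-like, MDP-like and monocyte-like cells. The granulocyte pair alone was then in 83.4% of specific-granule granulocyte-like and the monocyte pair alone in 86.4% of MDP-like cells. The cause was not tested.

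No paired analysis was possible because the labels give single pools of the groups no shared replicate numbers, but a fit within the pool sets was, and it was run with the sets as a block. With 4 pools a group, a difference of a size within the printed intervals could not be told from 0 where they span it. Low counts limit Klf4 and Gfi1, with 2428 and 2403 UMIs in all cells, and Klf4 in cluster 24 and in the specific-granule class and Gfi1 in monocyte-like cells rest on 14 UMIs or fewer. Free RNA adds UMIs to all classes by an amount that was not measured. Dendritic-like cells were read in 5 pools. Genes for antigens of the lineage cocktail were present in several classes.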
